A study of Arabidopsis thaliana with 54 samples.

Results

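The comparison described here set roots of the *cif1 cif2* double mutant against wild-type roots of Arabidopsis thaliana, both given 100 nM CIF2 peptide for 30, 120 or 480 min. It took 18 of the 54 RNA-seq libraries of the series, chosen by their titles: 9 of *cif1 cif2* and 9 of wild type, with 3 libraries per genotype and time. *cif1 cif2* carried the *cif1-2* and *cif2-2* alleles, made with CRISPR-Cas9 in the Col-0 background, so the mutant side rests on a single double-mutant line. Wild type was Col-0. Both genotypes were grown upright on mesh for 5 days on solid medium under the same long-day light, moved to fresh medium with or without the peptide, and whole roots were frozen. The 18 libraries of both genotypes from the same times without peptide are used beside them to show which differences were also there when no peptide was added, and the 18 libraries of the receptor mutant *sgn3-3* are named only where a level helps. The titles number the batches from 1 to 3, with every group present once in each. Nothing in the labels says whether the batches were separate sowings, so the P values measure the spread between these libraries.

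CIF1 and CIF2 are small sulfated peptides made in the stele of the root. They diffuse outwards and bind the receptor kinase SGN3 (also called GSO1) on endodermal cells, the cell layer that surrounds the vascular tissue. As long as the Casparian strip, the belt of lignin that seals the wall space between endodermal cells, is open, peptide can reach the receptor and drive the placement of CASP membrane proteins and the deposition of lignin. A plant that lacks both peptides keeps the receptor and has a leaky strip, which closes when peptide is supplied from outside. The comparison therefore asks what still differed between peptide-deficient and wild-type roots once both had received the same peptide.

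The *cif1 cif2* libraries with CIF2 held 21328819 to 33352177 reads counted to genes (median 28901751), and the wild-type ones 26202023 to 34087589 (median 30649655). Of 34262 genes in the files, 19668 were tested, those with a CPM of at least 1 (counts scaled to a common library size of 1e6 reads) in 1 library or more. Levels are given as CPM, which compares a gene between samples and not with another gene, and differences as log2 fold changes of *cif1 cif2* over wild type with the standard error. Reads of a whole root cannot tell fewer cells of a type from less RNA per cell.

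Before any result, 1 conflict in the labels has to be named. The 3 *cif1 cif2* libraries titled as CIF2 at 480 min have a treatment entry that says no peptide, and they were taken by their titles. Over 380 genes that CIF2 raised in wild type at 480 min, these libraries stood above the untreated *cif1 cif2* library of the same batch by a median log2 difference of 1.40, 1.64 and 1.54 in batches 1, 2 and 3, against 1.68, 1.1 and 1.61 in wild type. The 380 genes were picked from those same wild-type libraries, so the wild-type values are high by that choice. Without these libraries 10 of the 59 tests on named genes lost their call, each with its direction kept. These were the pooled differences of MYB72 (-1.93 without them), BHLH100 (-1.09), bHLH38 (-0.96), bHLH39 (-0.60), BGLU42 (-0.12), B70 (0.34), EXPA18 (0.29), CASP2 (0.29), UCC1 (0.28) and RSL4 (0.28), all called with every library in the fit, and the counts that moved are given below. AT4G34600, taken here as the CIF2 gene because the guide sequence in the study's methods lies in it, was still transcribed. It had 47.7 to 60.6 CPM (median 56.2) in *cif1 cif2* and 59.9 to 71.6 CPM (median 64.8) in wild type, and was lower in the mutant in 9 of 9 pairs of the same time and batch (log2 fold change -0.28 ± 0.05, edgeR adjusted P = 0.000977). An allele made by a small insertion or deletion need not lose its RNA, so this level does not check the genotype. CIF1 was not analysed here. The receptor gene GSO1 averaged 248 ± 67.8 CPM in *cif1 cif2* and 212 ± 48.5 CPM in wild type (SD, n = 9 each), which did not pass the test (0.22, adjusted P = 0.0652), while the *sgn3* libraries with CIF2 held 30.8 ± 8.53 CPM.

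Pooled over the 3 times, the genotypes differed in many genes by a little and in few genes by much. At an adjusted P of at most 0.05, 935 genes differed (4.75% of those tested), 654 higher in *cif1 cif2* (3.33%) and 281 lower (1.43%). Of these, 831 had a log2 fold change under 0.5 in size, and the median size was 0.22. With a fold change of at least 1 on the log2 scale as well, 21 genes were called (0.107%), 12 higher and 9 lower. The median log2 fold change over all genes tested was 0.01. How many genes pass depends on the libraries: 1878 passed without batch 1, 45 without batch 2, 56 without batch 3, 391 without the 3 libraries of conflicting labels and 142 when the batch was not in the model, of which 786, 43, 54, 361 and 142 were among the 935. Every one of the 935 that was tested kept its direction in each of these 5 fits. The fits reuse most or all of the libraries from which the 935 were picked, so this is no separate check. The fit without the 3 libraries of conflicting labels pooled 30 and 120 min only. With the fold threshold, 34, 10 and 6 genes were called without batches 1, 2 and 3, and 11 without the batch in the model. The 120 min libraries weighed on the count too: 46 genes passed when only 30 and 480 min were pooled, against 964 from 120 and 480 min.

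**Figure D1:**
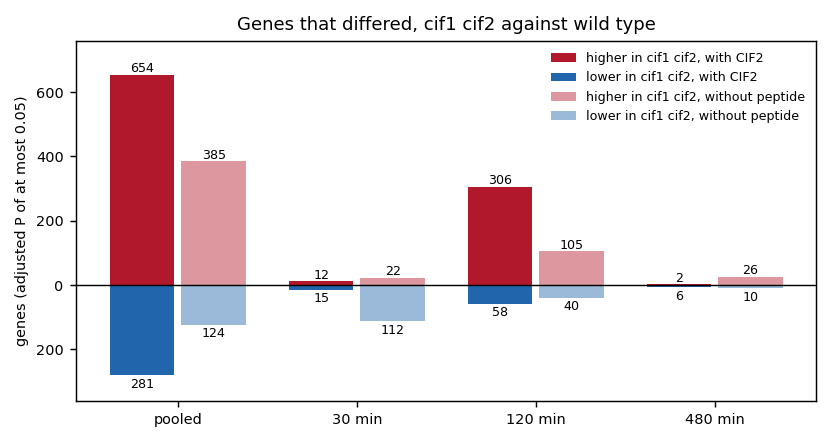
Number of genes that differed between *cif1 cif2* and wild type at an adjusted P of at most 0.05 (y axis), higher above 0 and lower below 0, pooled over the times and at each time (x axis), with CIF2 (dark bars) and without peptide (pale bars). With CIF2 the pooled comparison held 654 higher and 281 lower genes, and most single-time differences lay at 120 min (306 higher, 58 lower).

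The single times differed widely in their counts. At 30 min 27 genes passed the adjusted P (0.137%), 12 higher (0.061%) and 15 lower (0.0763%) in *cif1 cif2*, and 13 also passed the fold threshold (0.0661%). At 120 min the number was 364 (1.85%), 306 higher (1.56%) and 58 lower (0.295%), with 28 past the fold threshold (0.142%), 26 of them higher. At 480 min 8 genes passed (0.0407%), 2 higher (0.0102%) and 6 lower (0.0305%), with 4 past the fold threshold (0.0203%). Of the pooled list, the 30 min comparison also held 25 genes, the 120 min one 237 and the 480 min one 6, with 3 in all of them. An unadjusted P under 0.05 was reached by 1699, 3249 and 1533 genes at 30, 120 and 480 min. These counts are those of 3 libraries per group and move with them: the fold-threshold calls numbered 4 to 14 at 30 min, 2 to 14 at 120 min and 1 to 2 at 480 min when 1 batch was left out. The lowest counts at 30 and 120 min came without batch 2, with 6 and 12 genes without batch 3.

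Without peptide the same comparison gave 509 genes (2.59%), 385 higher (1.96%) and 124 lower (0.63%) in *cif1 cif2*, with 32 past the fold threshold (0.163%). The lists with and without peptide come from different libraries of the same batches. They shared 211 genes, which is 22.6% of the CIF2 list and 41.5% of the list without peptide, and 202 of the shared genes had the same sign. At the fold threshold they shared 12 genes, 57.1% of one list and 37.5% of the other, all with the same sign. Of the 21 called genes, 6, 3, 7 and 4 lay on chromosomes 1 to 4 and none on chromosome 5, and the share past the adjusted P ran from 3.99% of the tested genes on chromosome 1 to 5.28% on chromosome 4.

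A handful of genes differed at every time, and by about the same amount with and without peptide. AT3G44670, annotated as a disease resistance protein of the TIR-NBS-LRR class, had the largest rise. Its level at 30 min was 21.8, 16.6 and 14.7 CPM in *cif1 cif2* (batches 1 to 3), against 2.4, 2.69 and 1.85 CPM in wild type. The values for 120 min were 15.9, 11.1 and 11.9 CPM in *cif1 cif2*, against 2.22, 1.42 and 1.43 CPM in wild type, and those for 480 min were 20, 12.8 and 15.5 CPM in *cif1 cif2*, against 1.75, 1.89 and 1.75 CPM in wild type. No *cif1 cif2* library came near the wild-type range. The means were 15.6 ± 3.57 and 1.93 ± 0.426 CPM (SD, n = 9 each), a log2 fold change of 3.00 ± 0.09 (adjusted P = 1.37e-27), and the difference without peptide was 2.99. In *sgn3* with CIF2 the gene averaged 14.2 ± 3.58 CPM. Genes of this class have close relatives in the genome, and how reads shared between them were counted was not tested for this gene.

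AT3G08947, an ARM repeat protein, was the other coding gene past the adjusted P at all 3 times. Its lowest, median and highest levels were 10.4, 12.6 and 15.2 CPM in *cif1 cif2*, against 5.33, 8.49 and 9.66 CPM in wild type, so the groups did not overlap. The log2 fold change was 0.79 ± 0.06 with CIF2 (adjusted P = 3e-13) and 0.79 without peptide, and the *sgn3* libraries averaged 13.3 CPM. Differing from both, AT2G06995, a non-coding transcript named here after its values were seen, was nearly absent in the mutant: it had 0 or 1 read in each *cif1 cif2* library and 18 to 41 reads (median 25) in each wild-type library. Against a floor of 3 reads per library it was at least 8.02-fold lower in *cif1 cif2* (adjusted P = 3.27e-11). It was nearly absent in *sgn3* too: with CIF2 it averaged 0.0170 CPM there, 0.0125 CPM in *cif1 cif2* and 0.871 CPM in wild type. A further non-coding transcript, AT2G05665, also named after its values were seen, averaged 0.224 ± 0.085 CPM in *cif1 cif2* and 0.730 ± 0.243 CPM in wild type (SD, n = 9 each; -1.65 ± 0.20, adjusted P = 1.67e-06), and 0.656 CPM in *sgn3*.

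Apart from iron-uptake genes, only AT1G44030 and AT1G73120 were also called in the pooled comparison at a mean of 2 CPM or more in the higher genotype and with the same sign in all 9 pairs. AT1G44030, a cysteine- and histidine-rich C1 domain protein, had 1.01, 1.75 and 5.03 CPM (lowest, median and highest) in *cif1 cif2*, against 0.193, 0.875 and 2.71 CPM in wild type (1.40 ± 0.19, adjusted P = 1.15e-05). The ranges overlapped, also within 120 min, where the lowest mutant library had 1.54 CPM and the highest wild-type library 2.71 CPM. Yet the mutant library was higher in 9 of 9 pairs. Without peptide the pooled difference was 1.27 for AT1G44030 and -1.11 for AT1G73120 (adjusted P = 1.19e-05 and 0.0213). AT1G73120, an F-box protein, was lower in the mutant, with 1.75, 3.21 and 8.73 CPM in *cif1 cif2* and 2.98, 8.00 and 48.6 CPM in wild type (-1.66 ± 0.31, adjusted P = 0.00146) and a lower mutant library in all 9 pairs. Called at 120 min, AT2G41480, a class III peroxidase, one of the wall enzymes that oxidise phenolics with hydrogen peroxide, had 2.14, 6.16 and 24.7 CPM in *cif1 cif2* and 4.88, 13.6 and 33.8 CPM in wild type (-0.85 ± 0.12, adjusted P = 3.1e-05), with a log2 fold change of -1.24 at 120 min.

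Receptor-type genes of low level were among the higher ones. RK2 and RLP40 were also higher without peptide, by 1.23 and 1.47 over the pooled times (adjusted P = 0.00015 and 1.39e-05). Without peptide RLP40 had 2.08 at 120 min. In *sgn3* with CIF2, RK2 averaged 0.772 CPM and RLP40 7.59 CPM, beside 1.23 and 7.47 CPM in *cif1 cif2*. RK2, a receptor kinase of the S-domain type, had 0.433, 0.979 and 2.42 CPM in *cif1 cif2*, against 0.0651, 0.596 and 0.953 CPM in wild type (1.18 ± 0.20, adjusted P = 0.000549). RLP40, a receptor-like protein without a kinase domain, had 2.99, 8.19 and 17.6 CPM in *cif1 cif2*, against 0.423, 4.81 and 6.81 CPM in wild type (1.34 ± 0.24, adjusted P = 0.000977), and its difference at 120 min was 2.5 ± 0.54. At that time AT1G72060, annotated as an inhibitor of serine proteases, had 7.07, 9.12 and 5.78 CPM in *cif1 cif2* and 2.9, 2.21 and 2.08 CPM in wild type (1.60 ± 0.24, adjusted P = 0.000117). The 8 other genes called as higher in the pooled comparison all averaged under 2 CPM in *cif1 cif2*, and AT3G28220, a TRAF-like protein, had the largest of their differences (2.19 ± 0.41, adjusted P = 0.00146).

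**Figure D2:**
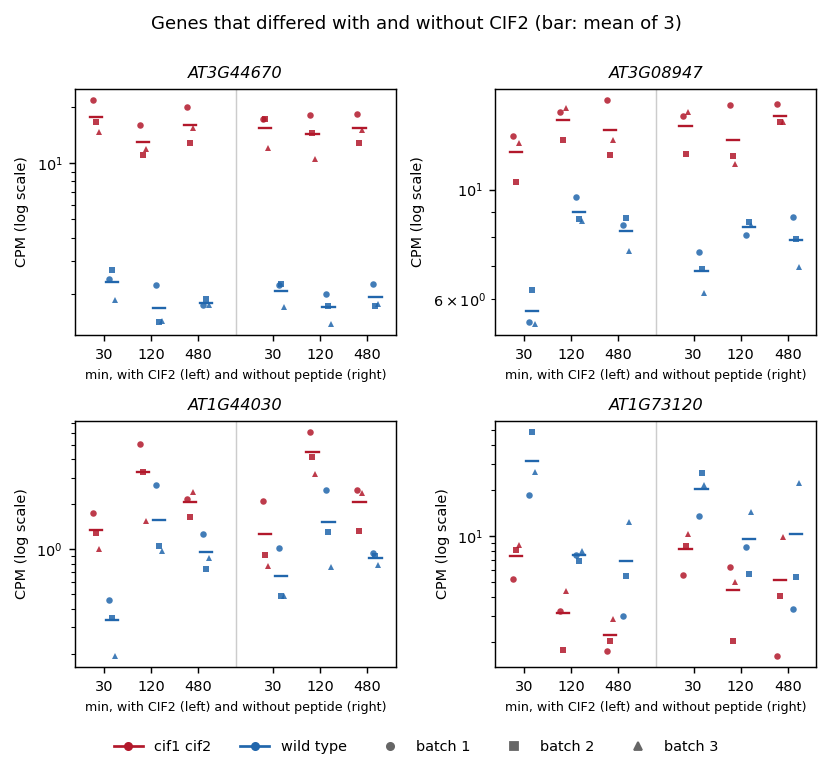
CPM in each library (y axis, log scale) of 4 genes that differed between the genotypes, by time (x axis), with CIF2 on the left and without peptide on the right of each panel. Red is *cif1 cif2* and blue wild type, the marker shape is the batch and the bar is the mean of 3 libraries. AT3G44670 and AT3G08947 were separate at every time with and without peptide, while AT1G44030 was higher and AT1G73120 lower in *cif1 cif2* with ranges that overlapped over the times.

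Among the gene lists examined, that of iron deficiency held the most genes that fell in the pooled comparison with CIF2. Roots of Arabidopsis take up iron by acidifying and reducing: FRO2 reduces ferric iron at the surface of epidermal cells and IRT1 carries the ferrous ion in. Both genes are switched on by the transcription factor FIT (named FRU in the annotation) together with the partner proteins bHLH38, bHLH39, BHLH100 and BHLH101, whose own transcripts rise when iron is short. Of 27 measured genes in the list of iron-deficiency genes, 10 fell in *cif1 cif2* with CIF2 (1.43% of all genes tested were lower) and 1 rose (3.33% were higher), and the list's median log2 fold change was -0.36, against 0.01 over all genes tested. Below 0 were 23 of the 27, beside 8994 of the 19668 genes tested. Without peptide 21 of the 27 were below 0, beside 9024 of all genes tested. All 10 also lay below 0 there, as did 260 of the 281 genes that were lower with CIF2. Only 2 list genes passed as lower without peptide and 2 as higher (0.63% and 1.96% of all genes tested, median -0.15). No list gene passed the test of the difference between CIF2 and no peptide. At single times with CIF2, 2 list genes passed as lower at 30 min, none at 120 min and 1 at 480 min.

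The number of iron genes that fell was 11 without batch 1, 2 without batch 2 and 1 without batch 3. It was 5 without the libraries of conflicting labels and 1 without the batch in the model. Each of the 10 that was tested kept its direction. Their median stayed between -1.14 and -0.96 when a batch was left out (-1.06 with all). These fits reuse most or all of the libraries that picked the 10, so a kept direction was likely. At 30 min batch 1 held the lowest IRT1, FRO2 and bHLH38 levels of the 3 batches in both genotypes, and the part of this difference between batches in the result was not tested.

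The uptake genes themselves show the pattern. IRT1 at 30 min had 48.4, 119 and 142 CPM in *cif1 cif2* (batches 1 to 3), against 105, 362 and 345 CPM in wild type. After 120 min it had 27.2, 25.1 and 54.4 CPM in *cif1 cif2*, against 47.1, 59.4 and 88.8 CPM in wild type, and after 480 min 103, 110 and 130 CPM in *cif1 cif2*, against 141, 213 and 381 CPM in wild type. In every batch and at every time the mutant library was the lower one. The same sign in all 9 pairs was one rule by which genes were named, so it is no separate result. It held for 2.99% of all genes tested and 31.1% of those past the adjusted P in the pooled comparison. IRT1 had its lowest mean at 120 min in both genotypes. Over the 9 libraries the mean was 84.4 ± 45.6 CPM in *cif1 cif2* and 194 ± 136 CPM in wild type (SD), a log2 fold change of -1.08 ± 0.24 (adjusted P = 0.00696). Without peptide IRT1 had a log2 fold change of -0.57 that did not pass (adjusted P = 0.215). FRO2 at 30 min had 8.24, 21.7 and 29.9 CPM in *cif1 cif2*, against 21.9, 83.8 and 112 CPM in wild type. After 120 min it had 10.6, 7.09 and 16.3 CPM in *cif1 cif2*, against 17.6, 17.1 and 27.3 CPM in wild type, and after 480 min 32.7, 38.5 and 43.5 CPM in *cif1 cif2*, against 50.7, 98.6 and 184 CPM in wild type. It too was lower in all 9 pairs (-1.35 ± 0.24, adjusted P = 0.00115), with -0.75 without peptide (adjusted P = 0.0712). In *sgn3* with CIF2, IRT1 averaged 105 CPM and FRO2 28.7 CPM. Both lay between the other genotypes and nearer to *cif1 cif2* (84.4 and 23.2 CPM) than to wild type (194 and 68.2 CPM). Among other list genes, the *sgn3* mean lay nearer to *cif1 cif2* for BHLH100 (2.32 CPM) and CYP82C4 (16.7 CPM). It lay nearer to wild type for bHLH38 (12.6 CPM) and BHLH101 (4.48 CPM). The *sgn3* differences were not tested here.

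All 4 partner factors of FIT fell. bHLH38 had 1.55, 6.93 and 11 CPM (lowest, median and highest) in *cif1 cif2*, against 6.70, 15.8 and 23.2 CPM in wild type (-1.04 ± 0.23, adjusted P = 0.00644). BHLH100 averaged 2.16 ± 1.57 CPM in *cif1 cif2* and 4.73 ± 3.56 CPM in wild type (SD, n = 9 each; -1.08 ± 0.29, adjusted P = 0.0232). bHLH39 averaged 17.9 ± 9.39 and 26.1 ± 11.2 CPM in *cif1 cif2* and wild type (-0.62 ± 0.16, adjusted P = 0.0159). BHLH101 had its largest difference at 30 min, with 0.675, 1.32 and 2.57 CPM in *cif1 cif2* and 2.8, 5.12 and 5.99 CPM in wild type (-1.63 ± 0.25, adjusted P = 0.000289), and -0.78 ± 0.14 pooled (adjusted P = 0.000682). FRU, by contrast, averaged 65.5 CPM in *cif1 cif2* and 65.1 CPM in wild type (-0.02, adjusted P = 0.906). PYE, a bHLH factor of iron homeostasis in the stele, and BTS, the E3 ligase that limits the response, had log2 fold changes of -0.02 and -0.03.

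The 4 factors that fell are one subgroup of bHLH proteins, and bHLH38 and bHLH39 are neighbours on chromosome 3. Their promoters, the 250 bases before the annotated start, are shown 5′ to 3′ along the gene's own strand to let the group be compared, from the RefSeq genome TAIR10.1. Capitals mark CACGTG, the G-box, a hexamer that reads the same on both strands and is bound by many bHLH and bZIP factors.
bHLH38 (AT3G56970, chr3:21085246-21085495, minus strand): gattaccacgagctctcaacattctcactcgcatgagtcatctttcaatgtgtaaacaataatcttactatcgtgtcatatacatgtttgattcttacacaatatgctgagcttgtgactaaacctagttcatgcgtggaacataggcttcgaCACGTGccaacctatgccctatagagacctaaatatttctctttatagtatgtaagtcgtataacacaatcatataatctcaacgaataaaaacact
bHLH39 (AT3G56980, chr3:21087711-21087960, minus strand): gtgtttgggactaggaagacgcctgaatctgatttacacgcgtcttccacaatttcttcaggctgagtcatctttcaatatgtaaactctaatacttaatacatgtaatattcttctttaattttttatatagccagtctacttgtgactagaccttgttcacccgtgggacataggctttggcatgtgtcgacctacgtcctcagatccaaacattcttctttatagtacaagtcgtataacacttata
BHLH100 (AT2G41240, chr2:17199455-17199704, minus strand): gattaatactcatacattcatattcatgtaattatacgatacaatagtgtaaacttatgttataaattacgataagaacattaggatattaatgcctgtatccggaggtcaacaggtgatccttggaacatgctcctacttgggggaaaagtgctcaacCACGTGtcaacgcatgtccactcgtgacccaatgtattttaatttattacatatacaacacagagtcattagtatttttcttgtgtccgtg
BHLH101 (AT5G04150, chr5:1139634-1139883, minus strand): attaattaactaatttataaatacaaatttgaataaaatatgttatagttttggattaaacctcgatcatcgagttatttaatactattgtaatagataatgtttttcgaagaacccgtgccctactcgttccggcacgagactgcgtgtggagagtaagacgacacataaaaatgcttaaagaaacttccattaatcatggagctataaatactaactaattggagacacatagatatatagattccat
The hexamer stood in bHLH38, its first base 97 bases before the start, and in BHLH100, 91 bases before it, and not in these windows of the other 2 promoters. It was found in 6 of the 27 measured iron genes (22.2%) and in 2 of the 10 that fell, against 7.24% of 19658 promoters of tested genes, and in 0 of the 25 measured Casparian strip genes. This is a description of letters and says nothing of which factor binds there.

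Genes for phenolics and metal chelators in the same list took both directions. CYP82C4, a cytochrome P450 that hydroxylates the coumarin fraxetin to sideretin in iron-starved roots, had 5.17, 7.17 and 31.0 CPM in *cif1 cif2* (lowest, median and highest), against 10.3, 17.4 and 106 CPM in wild type (-1.50 ± 0.30, adjusted P = 0.00246). AT3G12900, an oxygenase of the same coumarin pathway, had 0.119, 0.0686 and 0 CPM in *cif1 cif2* at 480 min and 0.53, 0.56 and 1.1 CPM in wild type (adjusted P = 0.0203), at or near single reads in the mutant. MYB72, a factor of the same pathway, fell at a low level (0.112 against 0.276 CPM, -1.65 ± 0.44, adjusted P = 0.0289), and BGLU42, a glucosidase that frees coumarins, fell by little (-0.14 ± 0.04, adjusted P = 0.0454). AT3G13610, which encodes the oxygenase that opens the coumarin pathway, was the list gene that rose: it averaged 422 ± 185 CPM in *cif1 cif2* and 334 ± 128 CPM in wild type (SD, n = 9 each) and was higher in 9 of 9 pairs (0.32 ± 0.07, adjusted P = 0.00587). Among the genes for nicotianamine synthase, which makes a chelator that moves iron inside the plant, NAS1 averaged 101 ± 29.9 CPM in *cif1 cif2* and 152 ± 79.7 CPM in wild type (-0.53 ± 0.14, adjusted P = 0.0219). NAS2 at 30 min had 22.9, 25 and 32.1 CPM in *cif1 cif2* and 40.2, 110 and 46.5 CPM in wild type (-1.26 ± 0.25, adjusted P = 0.0179), while NAS4 had a log2 fold change of 0.07 (adjusted P = 0.909) and FER1, a ferritin gene that is high when iron is ample, -0.11 (adjusted P = 0.648).

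**Figure D3:**
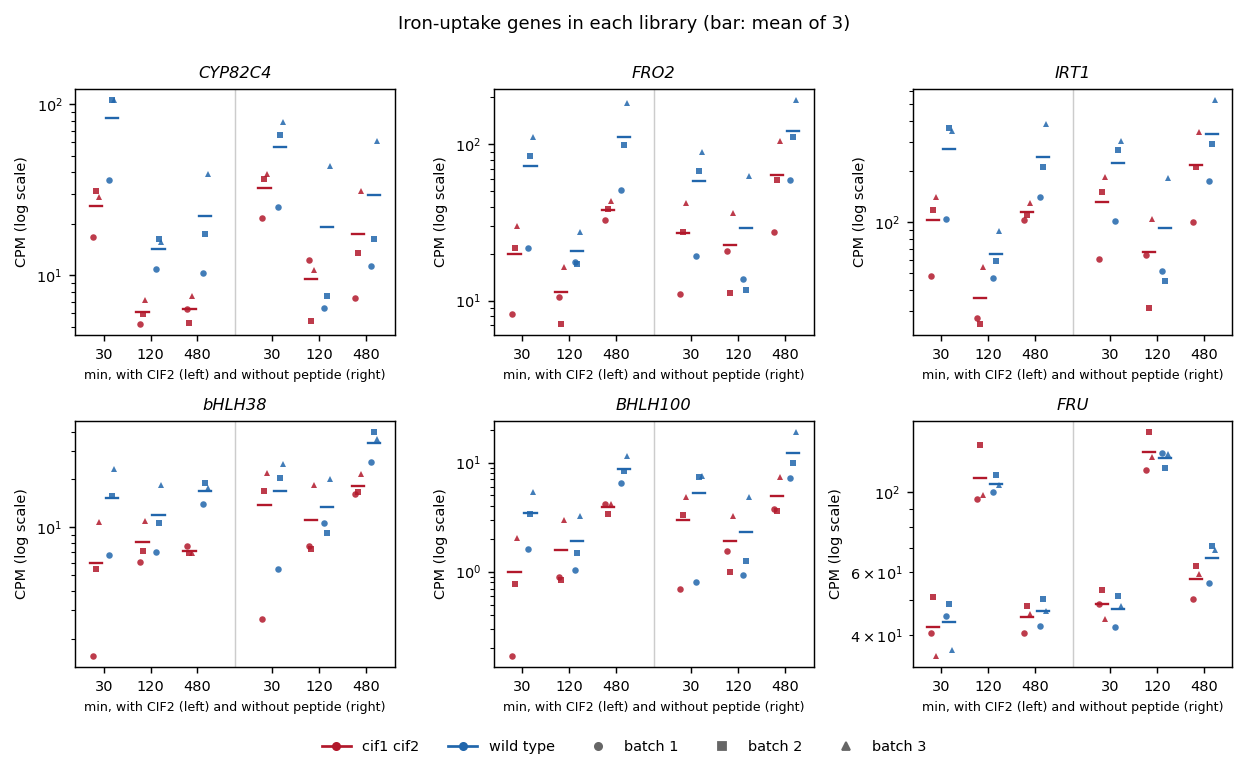
CPM in each library (y axis, log scale) of 6 iron-deficiency genes by time (x axis), with CIF2 on the left and without peptide on the right of each panel. Red is *cif1 cif2* and blue wild type, the marker shape is the batch and the bar is the mean of 3 libraries. With CIF2 every *cif1 cif2* library of CYP82C4, FRO2, IRT1, bHLH38 and BHLH100 lay below the wild-type library of its batch and time. This was one rule by which genes were named. FRU, at means of 65.5 and 65.1 CPM, did not pass the test.

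The Casparian strip genes gave the clearest case of a genotype difference that depended on the peptide. CASP proteins form the membrane scaffold of the strip, ESB1 and other dirigent-type proteins guide lignin, PER64 and other peroxidases polymerise it, and MYB36 switches on most of these genes. Without peptide, 13 of the 25 measured genes of the list were lower in *cif1 cif2* (0.63% of all genes tested were lower) and 1 was higher (1.96% were), with a median log2 fold change of -0.24. With CIF2, 4 were higher (3.33% of all genes tested) and none lower (1.43%) over the pooled times (median 0.17). The difference between these 2 genotype differences passed its own test in 13 of 25 genes, all towards *cif1 cif2*, which is 52% of the list and 26.5% of the 49 genes that passed among all tested (0.249%). The same 13 genes were all lower in *cif1 cif2* without peptide. With CIF2, 12 of them had values below 0 at 30 min, and all 13 had values above 0 at 120 and at 480 min. The test that picked the 13 used these same differences, so their signs are no separate result.

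CASP4 had the largest such difference. Without peptide it had 5.00, 7.22 and 10.4 CPM (lowest, median and highest of 9) in *cif1 cif2*, against 35.8, 45.6 and 64.6 CPM in wild type (-2.70 ± 0.11, adjusted P = 1.27e-21). With CIF2 for 30 min it had 15.2, 22.8 and 22.4 CPM in *cif1 cif2* and 47.7, 37.5 and 58.0 CPM in wild type (-1.25 ± 0.17, adjusted P = 3.69e-05). At 120 min the order had turned, with 127, 128 and 130 CPM in *cif1 cif2* and 89.1, 72.5 and 102 CPM in wild type, although this difference narrowly missed the test (0.56, adjusted P = 0.0579). The groups did not overlap at either time and did at 480 min, with 55.6, 66.5 and 83.6 CPM in *cif1 cif2* and 56, 55.8 and 69.2 CPM in wild type. The change in the genotype difference with CIF2 was 2.52 ± 0.15 on the log2 scale (adjusted P = 6.98e-16), and its change over the times with CIF2 passed too (adjusted P = 9.89e-05). In *sgn3*, which lacks the receptor, CASP4 stayed at 12.3 ± 3.71 CPM with CIF2.

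At 120 min 9 list genes were higher in *cif1 cif2* (1.56% of all genes tested) and none lower (median 0.33, beside 0.02 over all genes). CASP2 had 206, 212 and 226 CPM in *cif1 cif2*, against 142, 117 and 156 CPM in wild type (0.64, adjusted P = 0.00221). ESB1 had 438, 467 and 446 CPM in *cif1 cif2* and 357, 275 and 377 CPM in wild type (0.43, adjusted P = 0.0325). AT1G44970, a peroxidase, had 133, 133 and 156 CPM in *cif1 cif2*, against 88.3, 68.1 and 94.8 CPM in wild type (0.75, adjusted P = 0.00279). For CASP2, ESB1 and AT1G44970 the lowest mutant library lay above the highest wild-type library. As these genes had passed the test on the same libraries, this was likely and is no separate result. CASP1, at 323, 348 and 328 CPM in *cif1 cif2* and 249, 217 and 281 CPM in wild type, was just short of the threshold (0.43, adjusted P = 0.0501). The dirigent-type gene AT2G39430 was higher (0.49, adjusted P = 0.0221), with 330, 342 and 341 CPM in *cif1 cif2* and 264, 202 and 261 CPM in wild type.

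The size of this group depended on the batches. The count at 120 min was 11 without batch 1 and 0 without batch 2, without batch 3 or without the batch in the model. The count of list genes in the test between CIF2 and no peptide was 13 without batch 1, 5 without batch 2, 1 without batch 3, 7 without the batch in the model and 1 from 30 and 480 min only. All 13 kept their direction in each of these fits, with a median of 0.61 in the fit of all libraries. This was likely, as these fits reuse most or all of the libraries that picked the 13. The list genes lower without peptide numbered 8 to 13 when a batch was left out. Wild-type batch 2 was the lowest of the 3 at 120 min for CASP1, CASP2, CASP4, ESB1 and AT1G44970.

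CASP5 was an exception in the list, higher in *cif1 cif2* by 0.49 ± 0.10 over the pooled times (adjusted P = 0.00246), with 6.35, 20.7 and 51.6 CPM in *cif1 cif2* and 5.40, 11.9 and 37.3 CPM in wild type (lowest, median and highest), and without a call in the test between CIF2 and no peptide (0.25, adjusted P = 0.944). CASP2 (0.27 ± 0.07, adjusted P = 0.0219), the uclacyanin gene UCC1 (0.24 ± 0.07, adjusted P = 0.0296) and AT4G11290, a peroxidase (0.18, adjusted P = 0.0284), were the other 3 list genes higher over the pooled times. MYB36 averaged 84.8 ± 37.0 CPM in *cif1 cif2* and 77.9 ± 36.3 CPM in wild type and passed neither test (pooled 0.14, adjusted P = 0.32; change with CIF2 0.34, adjusted P = 0.578). SHR and SCR, the factors that specify the endodermis, were also without a call, as were all 25 genes of the suberin list (median -0.06), which make the waxy layer that endodermal cells lay down later.

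**Figure D4:**
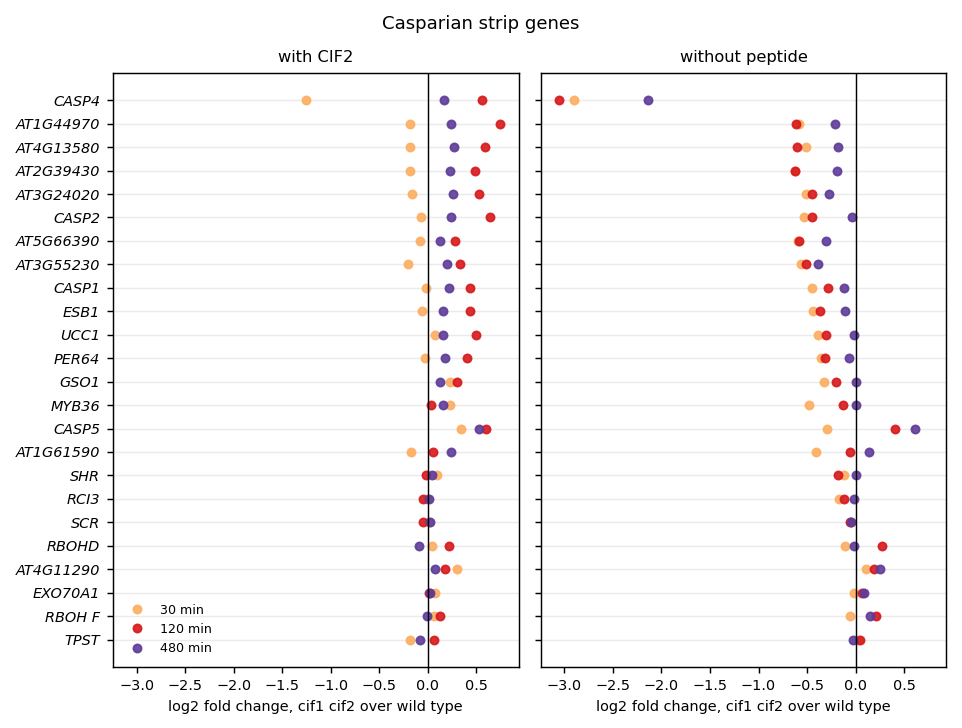
Log2 fold change of *cif1 cif2* over wild type (x axis) for 24 Casparian strip genes (rows), with CIF2 (left) and without peptide (right), coloured by time. Without peptide most points lie left of 0, with CASP4 farthest out, and with CIF2 the 120 min points of 21 of the 24 genes lie right of 0.

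Outside the list, the same test picked out further genes, and all 49 that passed changed in the same direction. All were below 0 without peptide, and 45 were above 0 with CIF2 over the pooled times. At 30, 120 and 480 min with CIF2, 13, 48 and 46 were above 0. The test that picked the 49 used these same differences, so their signs are no separate result. Among all 19668 genes tested, 9024 were below 0 without peptide and 10674 above 0 with CIF2 over the pooled times. In the test itself, 1009 of all genes had an unadjusted P under 0.05. B70, a bHLH factor, had 91.8, 105 and 110 CPM in *cif1 cif2* at 120 min and 68.1, 51.7 and 67.3 CPM in wild type. Without peptide it averaged 10.4 ± 1.78 CPM in *cif1 cif2* and 19.7 ± 4.29 CPM in wild type (SD, n = 9 each), with no overlap, and the genotype difference changed by 1.22 ± 0.12 (adjusted P = 1.03e-08). FH8, a formin, one of the proteins that build actin filaments, had 85.5, 90 and 82.4 CPM in *cif1 cif2* at 120 min and 65.3, 54 and 56.6 CPM in wild type (0.55 ± 0.08, adjusted P = 6.43e-05). Without peptide the mean of FH8 was 17.2 ± 1.5 CPM in *cif1 cif2* and 23.3 ± 4.40 CPM in wild type, and the change was 0.65 ± 0.07 (adjusted P = 6.59e-08). AT4G05170, a further bHLH factor, changed by 0.92 ± 0.10 (adjusted P = 2.21e-07), with 50, 55.5 and 60.8 CPM in *cif1 cif2* at 120 min against 39.5, 31.1 and 38.3 CPM in wild type. AT1G71740, annotated as a nucleolar protein, had 81.4, 101 and 96.8 CPM in *cif1 cif2* at 120 min, against 55.1, 45.9 and 61.7 CPM in wild type, and changed by 0.93 ± 0.12 (adjusted P = 1.61e-05). In *sgn3* with CIF2 the levels of FH8 and AT4G05170 were 18.4 ± 2.45 and 6.96 ± 0.55 CPM, near those of untreated *cif1 cif2*. The number of genes that passed was 45, 13 and 4 without batches 1, 2 and 3, 30 without the batch in the model, and 5 from 30 and 480 min only.

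**Figure D5:**
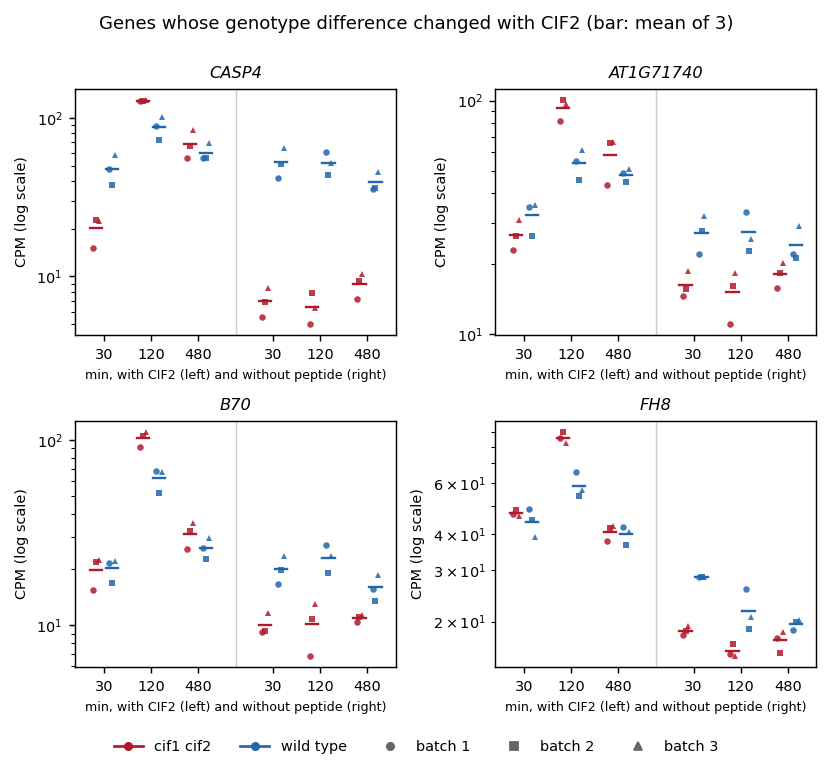
CPM in each library (y axis, log scale) of CASP4, AT1G71740, B70 and FH8 by time (x axis), with CIF2 on the left and without peptide on the right of each panel. Red is *cif1 cif2* and blue wild type, the marker shape is the batch and the bar is the mean of 3 libraries. In all 4 panels the red bars lie below the blue bars without peptide and above them at 120 min with CIF2, as for CASP4 with 127 to 130 CPM in *cif1 cif2* and 72.5 to 102 CPM in wild type. The 4 genes were picked by the test between CIF2 and no peptide, which used these libraries.

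Whether the genotype difference under CIF2 itself changed over the times was tested for each gene, and 14 genes passed (0.0712%), with 1191 at an unadjusted P under 0.05. In 12 of the 14 the difference was highest at 120 min. ATL3, a RING-type protein of the E3 ligase class, had 40.3, 48.9 and 48.6 CPM in *cif1 cif2* at 30 min and 59.5, 51.7 and 54.7 CPM in wild type. At 120 min it had 85.6, 90.4 and 88.7 CPM in *cif1 cif2* and 70.3, 54.9 and 61.3 CPM in wild type. So its order turned between these times (adjusted P = 0.00366 for the change over times), and at 480 min the groups overlapped. AT1G04330, an uncharacterised protein, had 2.21, 3.11 and 2.70 CPM in *cif1 cif2* at 120 min and 0.946, 1.72 and 1.27 CPM in wild type (adjusted P = 0.00351 for the change over times), and AT1G28815 (0.00791) and RABA3, a RAB GTPase (0.00913), passed in the same way. WRKY71, a WRKY factor, was lower at 30 min only, with 0.338, 0.515 and 0.597 CPM in *cif1 cif2* and 2.09, 1.55 and 1.31 CPM in wild type (-1.77 ± 0.33, adjusted P = 0.00592). Its difference over times passed too (adjusted P = 0.0229). The number of genes with a change over times was 10, 1 and 0 without batches 1, 2 and 3, 1 without the batch in the model and 34 with DESeq2.

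Several genes of phenylpropanoid and lignin synthesis rose by small amounts. Of 32 measured genes, 15 were higher in *cif1 cif2* over the pooled times (3.33% of all genes tested were higher) and none lower (median 0.16). By time, 30 min held 1 such gene (0.061%), 120 min 9 (1.56%) and 480 min none (0.0102%). Without peptide 8 were higher (1.96%) and 1 lower (0.63%), with a median of 0.12, and 1 list gene, the laccase gene LAC3, passed the test between CIF2 and no peptide. 4CL1, a 4-coumarate:CoA ligase at the entry of the pathway, averaged 652 ± 47.5 CPM in *cif1 cif2* and 525 ± 56.9 CPM in wild type (SD, n = 9 each) and was higher in 9 of 9 pairs (0.32 ± 0.04, adjusted P = 1.36e-05). HCT, a transferase of the monolignol branch, averaged 357 ± 26.7 and 305 ± 18.3 CPM in *cif1 cif2* and wild type and was higher in all 9 pairs (0.23 ± 0.03, adjusted P = 0.000117). LysoPL2, listed as the esterase of the same branch, and CCoAOMT1, a methyltransferase of it, rose by 0.21 ± 0.04 (adjusted P = 0.000477) and 0.23 ± 0.05 (adjusted P = 0.00255). The laccase gene LAC12 reached 1.15 at 120 min (adjusted P = 0.00535). Without batches 1, 2 and 3 the number of higher list genes was 16, 2 and 2, it was 4 without the batch in the model and 5 from 30 and 480 min only. 4CL1 and HCT passed in all 3 of the fits with a batch left out.

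Markers of other cell types mostly did not differ in the pooled comparison with CIF2. The 6 endodermis markers did differ elsewhere. Of them, 2 were higher at 120 min with CIF2, 4 were lower without peptide, and 4 passed the test between CIF2 and no peptide. None of the measured markers of shoot and leaf (9), root cap (3), xylem (7), phloem (4), cortex (2), meristem (4), lateral root primordium (3) and endodermis (6) passed in the pooled comparison. The summed level of the shoot and leaf markers, which would come from shoot tissue left on a root, was 65.4 ± 20 CPM in *cif1 cif2* and 62.7 ± 18.3 CPM in wild type (SD, n = 9 each), and that of the 6 endodermis markers 1094 ± 300 and 945 ± 166 CPM. Root hair markers were the exception, with 5 of 7 higher, beside 3.33% of all genes tested, and none lower (median 0.23). EXPA7 and EXPA18, expansins of the root hair wall, averaged 117 ± 21.8 and 130 ± 10.6 CPM in *cif1 cif2*, against 99.3 ± 13.9 and 110 ± 8.64 CPM in wild type (0.23 ± 0.06 and 0.24 ± 0.07, adjusted P = 0.0293 and 0.039). RSL4, the factor that drives hair growth, averaged 33.8 ± 6.60 CPM in *cif1 cif2* and 28.6 ± 3.45 CPM in wild type (0.23 ± 0.07, adjusted P = 0.0408). The summed level of the 7 markers was 859 ± 124 CPM in *cif1 cif2*, with a range of 648 to 1005, and 721 ± 75.5 CPM in wild type, with a range of 631 to 861. Without peptide none of the 7 passed (median 0.16). The 5 calls were 7 without batch 1, 0 without batch 2, without batch 3 or without the batch in the model, and 1 with another filter on low counts. Root hairs and the epidermis around them express IRT1 and FRO2, which went the opposite way, and the part of cell numbers in either result was not tested.

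The remaining lists held few calls, and shares near the 3.33% higher and 1.43% lower among all genes tested are no result about a list. FRK1, a receptor-like kinase gene used as a marker of pattern-triggered responses, averaged 22.6 ± 24.2 CPM in *cif1 cif2* and 14.5 ± 14.8 CPM in wild type, and was higher in 9 of 9 pairs (0.60 ± 0.13, adjusted P = 0.00688), most visibly at 120 min with 49.7, 61.9 and 50.2 CPM in *cif1 cif2* and 36, 35.6 and 28.9 CPM in wild type. It was the only one of 20 measured genes of the defence list that passed (4.75% of all genes tested passed). In the jasmonate list of 16 measured genes, VSP1 (0.55 ± 0.13, adjusted P = 0.00967) and VSP2 (0.70 ± 0.18, adjusted P = 0.0202), which encode vegetative storage proteins, rose. They were also higher without peptide (0.70 ± 0.13, adjusted P = 0.000657, and 0.83 ± 0.18, adjusted P = 0.00462). SULTR1;1, a sulfate transporter of the root surface, was the 1 gene of 12 in the ion transport list that passed (0.41 ± 0.08, adjusted P = 0.00208), with 0.40 ± 0.08 without peptide (adjusted P = 0.00175). In the WRKY family of 54 measured genes, WRKY69 rose (0.16, adjusted P = 0.0192) and WRKY71 fell over the pooled times (-0.47, adjusted P = 0.0495), 2 of 54 genes beside 4.75% of all genes tested in either direction. None of the 14 circadian clock genes passed, with a median of 0.02.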

How the data were processed

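RNA of whole roots was made into stranded mRNA libraries and sequenced on an Illumina instrument. Per the labels and the study's methods, the authors trimmed with cutadapt 1.8, filtered out rRNA and reads of low complexity, mapped to TAIR10 with STAR 2.5.3a and deposited raw read counts per gene from HTSeq 0.9.1. Whether HTSeq used strand is not given in the sources used here, so overlapping antisense genes cannot be told apart. Reads without a feature or ambiguous came to 1.05% to 1.36% of the counted reads in the 18 libraries, and those not uniquely aligned to 3.78% to 4.03%, and both stayed out of library sizes and tests.

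The deposited counts of all 54 libraries were fitted in 1 edgeR 4.0.16 quasi-likelihood model (R 4.3.3) of 18 groups plus batch, as the study's methods fit all samples together, with TMM factors and genes of at least 1 CPM in at least 1 library. P values were adjusted over 19668 genes (Benjamini-Hochberg). Pooled differences are means of the differences at the 3 times, and the change with CIF2 is the pooled difference with CIF2 minus that without peptide. Standard errors are the log2 fold change divided by the square root of F. Batch numbers pair the libraries: in the 9 compared pairs, deviations from the group means correlated by 0.168 to 0.531 (mean 0.31). CPM were computed with the same factors.

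The members, gene lists and rules were chosen with earlier results of these data known. Genes were named as follows: the targeted genes, the 12 largest and 12 smallest pooled differences among called genes with at least 2 CPM in the higher genotype and the same sign in 9 pairs, up to 3 of each at each time, the 5 with the smallest P in either direction of the change with CIF2 and the 5 of the change over times, up to 4 of each list, and the whole Casparian strip list. 1 gene of the Casparian strip list is counted but not reported here by name. Other names were chosen after their values were seen. The lists and the cell type markers are those whose counts are given. Alternatives were DESeq2 1.42.0, limma 3.58.1, RLE factors, other filters, an adjusted P of 0.01, no batch term, only the libraries compared, each batch left out, and the 3 libraries of conflicting labels left out. Pools without 30 or without 120 min were added after seeing the data. The procedure was tested on simulated data. Of 34262 gene IDs, 32548 matched RefSeq TAIR10.1, which gave symbols and promoters.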

Additional observations from a re-analysis of the deposited data

Results flagged for a closer look

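Of 86 groups of libraries tested for a value apart from the rest, 3 held one. Each group held the 9 CIF2 libraries of 1 genotype over all 3 times. Chance alone gives about 1 in 20 only where the level does not move with time, so that rate need not hold here. RLP40 had 17.6 CPM in the *cif1 cif2* library of batch 3 at 30 min with CIF2, where the other *cif1 cif2* libraries of that time had 9.99 and 8.50 CPM. AT1G44030 had 2.71 CPM in the wild-type library of batch 1 at 120 min with CIF2, where the other wild-type libraries of that time had 1.06 and 0.976 CPM. NAS1 had 346 CPM in the wild-type library of batch 2 at 30 min with CIF2, where the others of that time had 170 and 179 CPM. Each of the 3 libraries thus stood above both others of its own genotype and time.

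The genotype difference itself differed with and without CIF2 in 49 genes. On the log2 scale the change, CIF2 minus no peptide, was 2.52 for CASP4, 1.22 for B70, 0.65 for FH8, 0.92 for AT4G05170, 0.93 for AT1G71740, 0.35 for ATL3 and 0.52 for AT1G28815. Among the other Casparian strip genes it was 0.61 for CASP2, 0.49 for CASP1, 0.48 for UCC1, 0.48 for ESB1 and 0.43 for PER64. For the dirigent-type genes it was 0.66 for AT2G39430, 0.62 for AT3G24020, 0.66 for AT4G13580 and 0.60 for AT3G55230, and for the peroxidase genes 0.74 for AT1G44970 and 0.60 for AT5G66390.

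Between the times with CIF2 the genotype difference differed in 14 genes. The edgeR adjusted P for this was 9.89e-05 for CASP4, 0.0481 for AT1G71740, 0.00351 for AT1G04330, 0.00366 for ATL3, 0.00791 for AT1G28815, 0.00913 for RABA3 and 0.0229 for WRKY71.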

How the results depend on the processing

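Directions held better than counts, but most alternatives reuse the libraries from which the genes were picked, so a kept direction was likely. Over 60 gene values and 813 combinations with an alternative, 615 stayed on their side of the threshold, 196 lost it, and 2 changed sign: AT1G28815 had -0.042 from 30 and 480 min only and WRKY71 0.19 from 120 and 480 min only. Leaving out a batch gave ranges of 45 to 1878 genes past the adjusted P and 6 to 34 with the fold threshold in the pooled comparison, 4 to 14 at 30 min, 2 to 14 at 120 min, 1 to 2 at 480 min, 12 to 25 without peptide, 4 to 45 for the change with CIF2 and 0 to 10 over times, 12 to 40 named genes, 1 to 11 iron genes lower, 2 to 16 phenylpropanoid genes, 0 to 7 root hair markers, 0 to 11 Casparian strip genes at 120 min, 1 to 13 in the change with CIF2 and 8 to 13 without peptide. Without the replicate block the pooled counts were 142 by adjusted P and 11 with fold, those at 30, 120 and 480 min 7, 10 and 2, and that without peptide 20. The change with CIF2 then had 30 genes, the change over times 1, the named genes 17, the iron list 1, phenylpropanoid 4, root hair 0, and the Casparian strip list 0 at 120 min, 7 in the change with CIF2 and 7 without peptide. At an adjusted P of 0.01 they were 210 (pooled, adjusted P alone), 11 (120 min), 2 (480 min), 21 (no peptide), 29 (change with CIF2), 5 (over times), 25 (named genes), 5 (iron), 0 (root hair) and 4 (Casparian strip at 120 min). DESeq2 gave 13 at 120 min, 0 at 480 min and 34 over times. The edgeR counts were 28 and 4 with the fold threshold, and 14 over times. Only the libraries compared gave 2 at 480 min, 1 over times and 8 Casparian strip genes lower without peptide. Leaving out the 3 libraries of conflicting labels gave 391 pooled, 5 iron genes and 3 root hair markers. It allowed no test at 480 min, so these counts pool 30 and 120 min only. Root hair markers numbered 1 with no filter and 1 with 1 CPM in 3 libraries. From 120 and 480 min only, 27 named genes, 3 iron genes and 0 root hair markers passed; from 30 and 480 min only, 46 and 12 (fold) pooled, 5 for the change with CIF2, 15 named genes, 6 iron, 5 phenylpropanoid, 0 root hair and 1 Casparian strip gene. The causes were not tested. Low levels limit genes under about 1 CPM, where a library held few reads.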
